A study of Mus musculus with 40 samples.

Results

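Neuroendocrine cells package peptide hormones and amines in dense-core granules and release them on a signal. The granins (chromogranins and secretogranins) are acidic proteins that fill and shape these granules, the prohormone convertases cut peptide precursors at pairs of basic residues, and carboxypeptidase E trims the basic residues left at the cut ends. Chromogranin A and synaptophysin are the pathologist's usual stains for neuroendocrine differentiation, also in breast tumours. The genes of this system described here were listed by name, with earlier results of these data known: Chga, Chgb, Scg2, Scg3, Scg5, Syp, Cck, Pcsk1, Pcsk2 and Cpe. Of these 10 genes, 9 had a probe set annotated to that gene alone (11 probe sets in all), among 18193 genes in the whole table. Pcsk2 was not analysed here.

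The series held 40 arrays of breast tissue, 1 per mouse, on an Affymetrix whole-genome design, with 5 mice in each of 8 groups. The wild_type group was BalbC. All other mice were WAP-TNP8, which make the SV40 T/t-antigen from the promoter of whey acidic protein, a milk protein, so the oncogene is active in mammary epithelial cells once a lactation has switched the promoter on. The before_activation group was taken before any lactation, the groups 1M, 2M, 3M, 4M and 5M at 1 to 5 months after it, and the invasive_tumour group at 4 or 5 months. The paper set the 1M mice aside from its later analyses, giving artifacts of lactation as the reason. The wild_type and before_activation mice together formed the 10 controls. No wild-type gland after a lactation is among these groups, so the transgene and the past lactation cannot be told apart in any comparison with the controls, and all those comparisons share the same 10 control arrays. The labels name each array as a separate replicate of its group.

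Levels are GCRMA intensities on the log2 scale, on which a step of 1 is a doubling, and each gene is given by its brighter probe set. A gene passed the test at a Benjamini-Hochberg adjusted p of at most 0.05 in limma, over 45037 probe sets, and was called when it also had an adjusted p of at most 0.01 and at least a 5-fold difference. The lowest summaries form a floor: 52.2 percent of the tested probe sets had a mean under 5, and a difference between values at the floor carries little about transcript levels. The number of arrays, 5 in a group, limits the precision.

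Some arrays stood apart. The mean of 8 lymphocyte marker genes was 7.11 or more on 14 arrays and 5.54 or less on the other 26. The arrays with high lymphocyte markers were 1 in wild_type, 2 in before_activation, 2 in 1M, 4 in 2M, 2 in 3M, 1 in 4M, 2 in 5M and 0 in invasive_tumour. The BioB hybridisation spike-in was more than 0.5 under the series median on all 5 before_activation arrays and on 1 wild_type and 1 5M array. Values without either set of arrays are given beside results that then passed or no longer passed.

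Promoter sequences are shown for the member that rose most, for the member that fell most, and for the granin and convertase genes whose promoters hold a full cyclic AMP response element, a known element of several granin genes. Chga, with only the first 5 letters of the element, was added outside this rule, whereas Scg5 and Pcsk2, with the same letters, are not shown. The sequences are from RefSeq on GRCm38.p6, and 9 of the 10 members matched an entry. The 250 bases before the start of each entry were searched on both strands for the full element TGACGTCA, for its first 5 letters TGACG (which every TGACGTCA also holds, on both strands) and for TTCNNNGAA, the letters that STAT factors bind. The full element was found in 3 members, Chgb, Scg2 and Pcsk1, and in 1.546 percent of the 32851 mouse promoters searched. Its first base lay 72, 68 and 78 bases before the start, in that order. TGACG was in 17.8 percent of all promoters, and in every matched member but Syp. TTCNNNGAA was in 7.02 percent of all promoters, with 1 match in Scg2 and 2 in Scg5, and was not in the windows of Cck or Scg3.

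The 30 bases around the element in Chgb (chr2:132781559-132781588, plus strand), Scg2 (chr1:79440076-79440105, minus strand) and Pcsk1 (chr13:75089768-75089797, plus strand) are set side by side to show the element, in capitals. Those of Chga (chr12:102554886-102554915, plus strand) and Scg3 (chr9:75684068-75684097, minus strand) hold the 5 letters TGACG, in capitals, without the full palindrome. The starts that the promoter table gives for Scg3 and Pcsk1 lie within the RefSeq span of each gene.
Chgb: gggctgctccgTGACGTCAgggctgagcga
Scg2: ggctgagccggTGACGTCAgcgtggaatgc
Pcsk1: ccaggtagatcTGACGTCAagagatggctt
Chga: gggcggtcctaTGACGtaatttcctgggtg
Scg3: cgctgggtcgcTGACGccatcctcacgcct

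The 250 bases directly before the start of Cck (chr9:121495695-121495944, minus strand, so written as the reverse complement of the reference) are shown because Cck changed most. The capitals mark CGTCA, which is TGACG read on the opposite strand and the only match of the 3 searches in this window.
Cck: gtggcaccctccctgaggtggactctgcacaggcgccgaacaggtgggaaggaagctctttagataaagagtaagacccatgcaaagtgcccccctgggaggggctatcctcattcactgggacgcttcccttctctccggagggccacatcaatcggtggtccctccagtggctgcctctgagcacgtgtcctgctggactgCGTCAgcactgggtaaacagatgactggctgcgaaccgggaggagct

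The classic granule genes stayed at the floor in every group. Chga (chromogranin A), Chgb (chromogranin B), Scg2 (secretogranin II, the precursor of secretoneurin) and Pcsk1 (the convertase PC1/3) had every group mean under 5. Scg2 lay between 2.40 and 2.59 on all 40 arrays and Pcsk1 between 1.99 and 2.17. The 40 arrays of Chga lay between 2.02 and 3.28 with a median of 2.07, and the highest value was that of before_activation replicate 1. Chgb lay between 2.28 and 3.46 with a median of 2.35, and its highest values were 3.46 in wild_type replicate 4 and 2.97 in before_activation replicate 4. No tumour array exceeded 2.09 for Chga or 2.36 for Chgb. None of these 4 genes passed the test in any comparison.

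**Figure D1:**
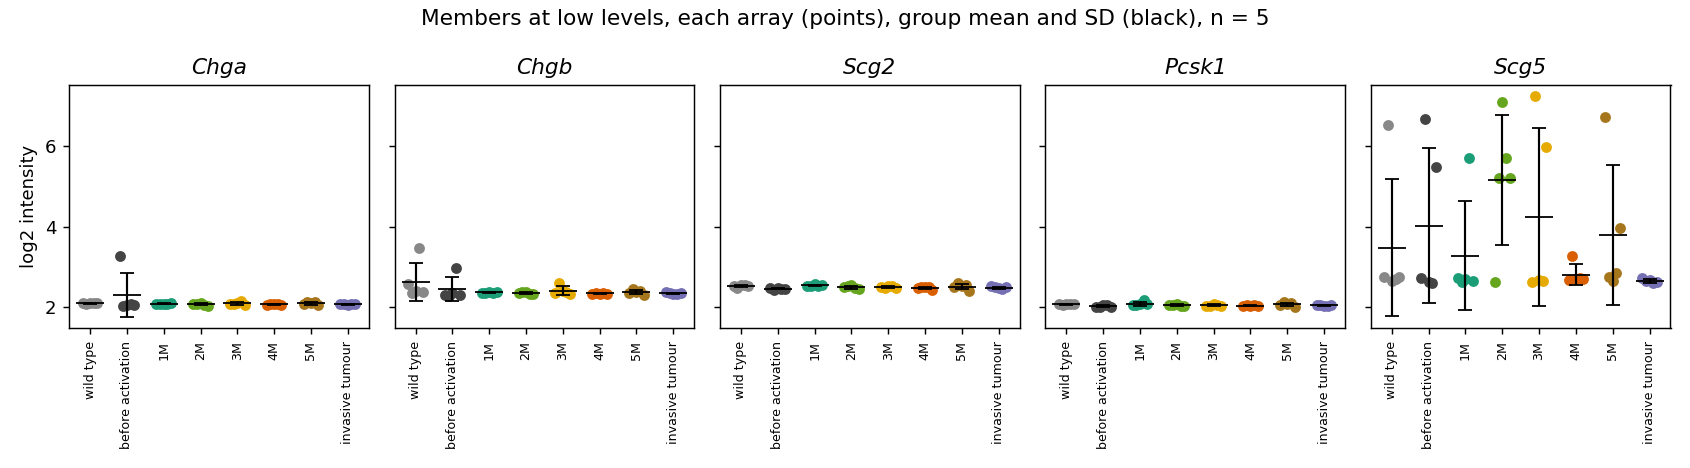
Log2 intensity of Chga, Chgb, Scg2, Pcsk1 and Scg5 on each array (points, 5 in each of 8 groups), with the group mean and SD in black. The first 4 genes stay under 3.5 on every array, whereas Scg5 is either near 2.7 or raised within a group.

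Cck encodes cholecystokinin, a peptide hormone of the gut and a neuropeptide of the brain. Its probe set 1419473_a_at changed more than that of any other member. In wild_type the 5 arrays read 4.85, 4.26, 5.59, 4.28 and 4.28, and in before_activation 4.22, 4.18, 5.24, 4.23 and 4.18. On 7 of these 10 arrays Cck was below 4.3, close to the lowest value that this probe set gave anywhere. At 1M the arrays read 12.31, 10.89, 10.99, 11.84 and 9.65, so the lowest 1M array was far above the highest control. The group mean was 11.14 ± 1.02 (SD, n = 5) against 4.53 ± 0.51 (SD, n = 10) in the controls, a difference of 6.60 ± 0.37 (SE, limma adjusted p = 2.01e-07). That is 97.2-fold on these summaries, which depends on how the floor of the controls was set.

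Cck was lower again from 2M on, but remained above the controls. The 2M arrays read 5.36, 9.89, 9.21, 8.26 and 9.10, of which replicate 1, the only 2M array with low lymphocyte markers, fell within the control range. The 3M arrays read 7.47, 7.88, 8.70, 6.28 and 10.63. The 4M arrays read 7.44, 7.84, 9.03, 9.80 and 5.92, and the 5M arrays 6.35, 7.85, 6.51, 7.52 and 8.29. Every array of 3M, 4M and 5M was above every control. The differences from the controls were 3.83 ± 0.57 at 2M, 3.66 ± 0.52 at 3M, 3.47 ± 0.49 at 4M and 2.77 ± 0.34 at 5M (limma adjusted p = 0.00399, 0.00111, 0.00139 and 1.85e-04), and Cck was called at each time, where 0.335, 1, 0.868 and 1.37 percent of the 18193 genes were called higher. By the unequal-variance test of the study's methods the adjusted p was 0.114, 0.0833 and 0.0994 at 2M, 3M and 4M, which did not pass, and without the arrays of low spike-in the 4M difference was 3.59 (adjusted p = 0.0538). Pooled as the early comparison, the 10 arrays of 2M and 3M, which address what changed early after activation, differed from the controls by 3.75 ± 0.52 (adjusted p = 1.29e-04), a 13.4-fold higher level that again depends on the floor of the controls. Without the arrays of high lymphocyte markers it was 2.28 (adjusted p = 0.0364). A slope over the months 2 to 5 was not detected (−0.34 ± 0.27 log2 per month, adjusted p = 0.737), and its sign turned without the arrays of high lymphocyte markers (0.37, adjusted p = 0.654). In a comparison added after the data were seen, where 1.99 percent of genes were higher and 1.23 percent lower, with 0.044 percent called higher and 0.022 percent called lower, Cck at 1M exceeded the 20 later glands by 3.17 ± 0.67 (adjusted p = 0.00848), and by 3.07 (adjusted p = 0.125) without the arrays of high lymphocyte markers.

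In invasive tumours Cck was back at the level of the controls, with 4.25, 4.26, 4.65, 4.23 and 4.23 on the 5 arrays. The difference from the controls was −0.21 ± 0.23 (adjusted p = 0.635), and 4 of the 5 tumours lay below the control mean. Against the 10 glands of 4M and 5M, which match the tumours in time, the tumours were lower by 3.33 ± 0.53 (adjusted p = 3.51e-04), with no overlap. All 5 tumour values lay under 5, at the floor, so this difference may understate the one between transcript levels. In the order of the group means (1M, 2M, 3M, 4M, 5M, wild_type, before_activation, invasive_tumour), the only neighbours whose arrays did not overlap were 5M and wild_type. The receptors of cholecystokinin, Cckar and Cckbr, had their highest group means at 2.38 and 1.76, at the floor.

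Scg3 encodes secretogranin III, a granin that binds chromogranin A and holds it at the granule membrane. Its probe set 1448628_at was bright in the controls, where the classic granins were at the floor. The wild_type arrays read 10.26, 10.40, 9.45, 8.46 and 8.95, and the before_activation arrays 9.59, 9.72, 8.59, 9.91 and 10.29. At 1M the arrays read 6.45, 5.79, 4.71, 5.24 and 5.15, all below every control. The 1M mean of 5.47 ± 0.67 (SD, n = 5) was lower than the control mean of 9.56 ± 0.70 (SD, n = 10) by 4.10 ± 0.37 (SE, adjusted p = 2.04e-05), a 17.1-fold lower level. Scg3 fell and Cck rose on all 5 of the 1M arrays. At 1M, 0.0385 percent of the 18193 genes were called lower and 0.610 percent called higher. These 2 genes were the only members that passed at 1M, 1 higher and 1 lower of 9, where 4.24 percent of all genes passed higher and 1.54 percent lower.

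After 1M the levels of Scg3 lay between those of 1M and of the controls. The 2M arrays read 9.0, 7.04, 7.46, 6.5 and 6.02, and the highest was again replicate 1, with low lymphocyte markers. The 3M arrays read 8.22, 7.97, 8.58, 8.57 and 7.15, of which 2 reached the lowest control. The 4M arrays read 9.72, 10.58, 7.91, 8.70 and 9.23, of which replicate 3 was below the control range and replicate 2 above it. The 5M arrays read 8.56, 9.55, 8.72, 7.93 and 7.0. The differences from the controls were −2.36 ± 0.45 at 2M (adjusted p = 0.0144) and −1.47 ± 0.35 at 3M (adjusted p = 0.0232), which passed, and −0.34 ± 0.43 at 4M (adjusted p = 0.815) and −1.21 ± 0.42 at 5M (adjusted p = 0.0791), which did not. By the methods' unequal-variance test the 2M difference did not pass (adjusted p = 0.106), nor did it without the arrays of low spike-in (−2.31, adjusted p = 0.112). At 3M the difference did not pass without the arrays of low spike-in (−1.42, adjusted p = 0.163), nor without 3M replicate 1, 2 or 5 (adjusted p = 0.0542, 0.0563 and 0.0639). At 5M the difference passed without wild_type replicate 4 or 5M replicate 2 (adjusted p = 0.0487 and 0.0386). Without the arrays of high lymphocyte markers it was −0.58 (adjusted p = 0.418). The slope from 2M to 5M was 0.46 ± 0.20 log2 per month (adjusted p = 0.397), and 0.03 (adjusted p = 0.928) without those arrays. In the added comparison, 1M was lower than the 20 later glands by 2.75 ± 0.53 (adjusted p = 0.00438).

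In the early comparison of 2M and 3M with the controls, Scg3 was lower by 1.91 ± 0.37 (adjusted p = 0.00199), and all 10 arrays were below the control mean. The difference passed without being called. It did not pass without the arrays of high lymphocyte markers (−0.72, adjusted p = 0.275), which removed 4 of the 5 2M arrays. Nor did it pass without the arrays of low spike-in (−1.86, adjusted p = 0.0517), which removed all before_activation arrays. In 2M and 3M the arrays with high lymphocyte markers had Scg3 between 6.02 and 7.97 and the others between 8.22 and 9.0. In the controls the arrays with high lymphocyte markers, at 9.72 to 10.40, were not below the others, at 8.46 to 10.26. At 3M alone the difference was −0.86 (adjusted p = 0.285) without the high-lymphocyte arrays. The part of lymphoid tissue in these differences was not tested. Without these arrays the difference was −4.10 at 1M, beside −4.10 with them, and −5.39 in tumours, beside −5.64 with them.

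Invasive tumours had the lowest Scg3, with 3.19, 3.45, 3.8, 3.17 and 6.02 on the 5 arrays, all below every control. The difference was −5.64 ± 0.47 (adjusted p = 4.38e-07), and against 4M and 5M it was −4.86 ± 0.58 (adjusted p = 3.13e-05). On 4 of the 5 tumours Scg3 was under 5, at the floor, so no fold is given and these differences may understate those between transcript levels. Replicate 5 stood apart from the other 4 tumours but was itself below the lowest 4M or 5M array. Every pair of neighbouring groups in the order of the Scg3 means (before_activation, wild_type, 4M, 5M, 3M, 2M, 1M, invasive_tumour) overlapped.

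**Figure D2:**
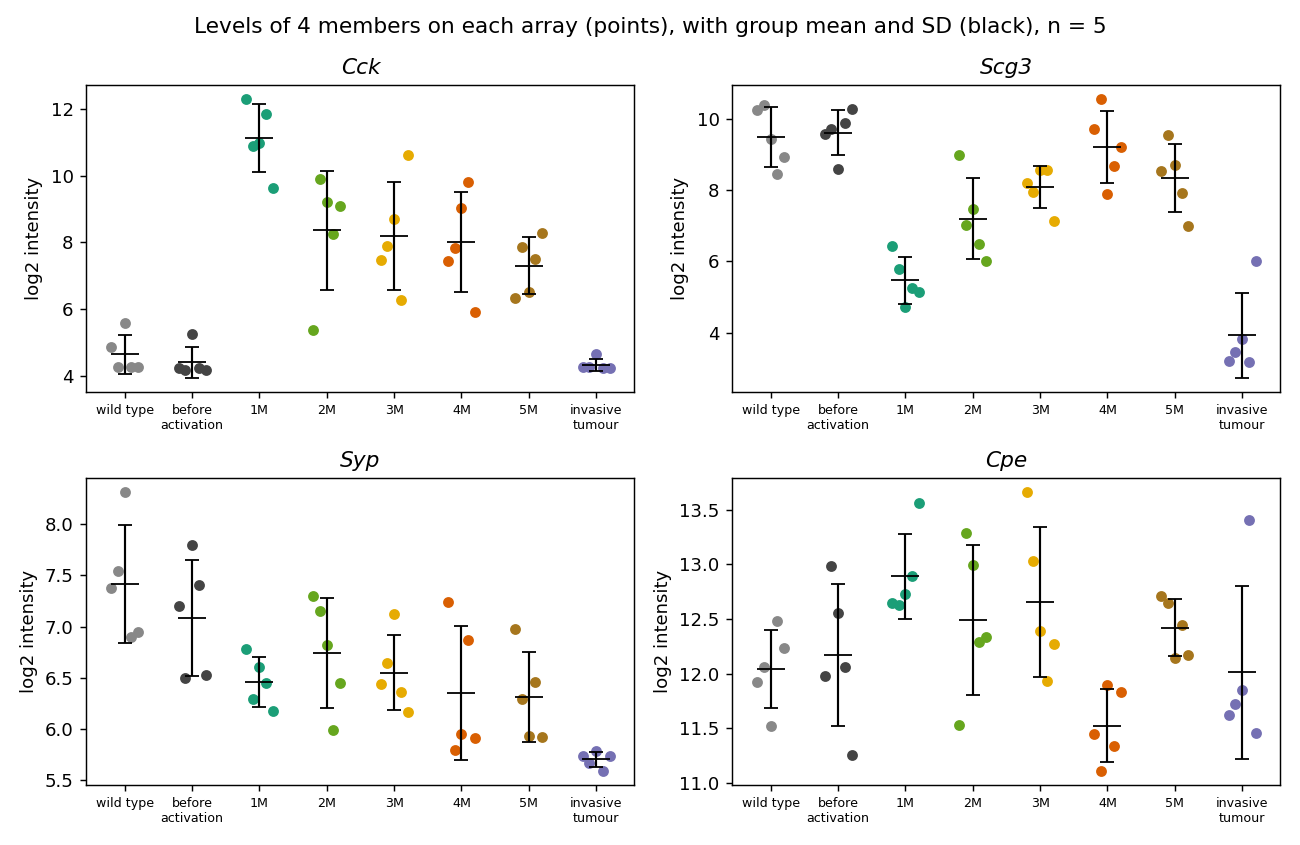
Log2 intensity of Cck, Scg3, Syp and Cpe on each array (points, 5 in each of 8 groups), with the group mean and SD in black and a separate axis range for each gene. Cck is highest and Scg3 low at 1M, the group means of both lie between 1M and the controls at 2M and 3M, and in invasive tumours Scg3 and Syp are low while Cck is at the level of the controls.

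In limma, Cck was higher and Scg3 lower than in the controls at 1M, 2M and 3M. In tumours Scg3 was lower than in the controls, and the difference of Cck did not pass. At 4M and 5M Cck was higher, but the difference of Scg3 did not pass. Over the 20 arrays of 2M to 5M, Pearson's r between them was −0.51 (permutation p = 0.0223) and Spearman's rho −0.60 (permutation p = 0.00683), and with each group's mean removed both were −0.60. In this family of 5 relations, the pooled r had an adjusted p of 0.0558 and the pooled rho of 0.0171. With the group means removed r had an adjusted p of 0.0299 and rho of 0.0171. The 5 relations share arrays, and their adjustment does not cover the choice of this pair among the members. The deviations were permuted across groups, not within them. These p-values are therefore descriptive. Without the 2 arrays farthest from the median of Cck, r was −0.46 (permutation p = 0.0556). Among the 9 arrays with high lymphocyte markers r was −0.49 and rho −0.50 (exact permutation p = 0.187 and 0.178), and among the other 11 arrays r was −0.30 and rho −0.38 (permutation p = 0.373 and 0.247). Both sets kept the sign, and at 9 and 11 arrays neither passed.

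**Figure D3:**
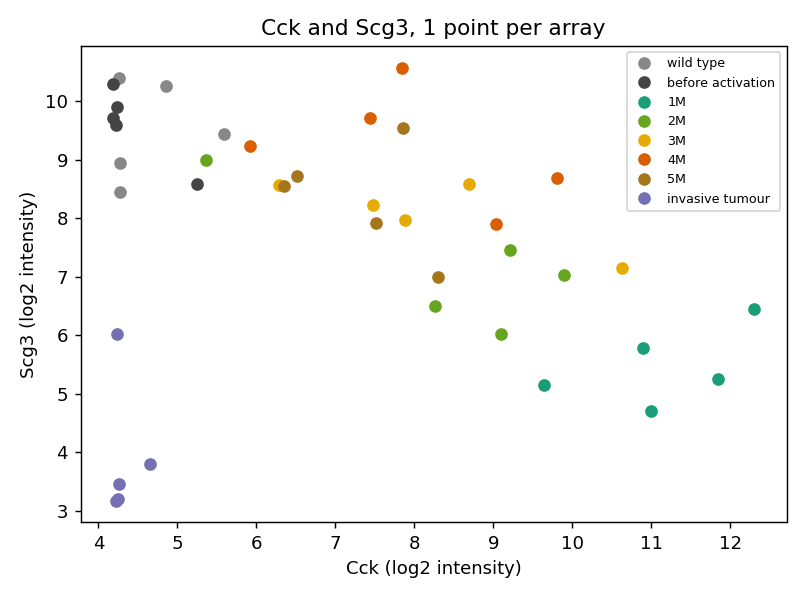
Log2 intensity of Cck (x axis) and Scg3 (y axis), 1 point for each of the 40 arrays, coloured by group. The controls lie at the upper left, the 1M arrays at the lower right, the 2M to 5M arrays between them, and the invasive tumours at the lower left.

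Syp encodes synaptophysin, a membrane protein of synaptic vesicles and of the small clear vesicles of neuroendocrine cells. Its probe set 1448280_at read 7.38, 7.54, 8.31, 6.90 and 6.95 in wild_type and 7.20, 6.5, 7.80, 7.41 and 6.53 in before_activation. The tumours read 5.74, 5.67, 5.78, 5.59 and 5.74, a narrow band below every control. Their difference from the controls was −1.55 ± 0.25 (adjusted p = 1.95e-04), a 2.92-fold lower level that passed without being called. The month groups lay between, with means from 6.32 at 5M to 6.74 at 2M. The 5M arrays, at 6.98, 6.29, 5.93, 6.46 and 5.92, were lower than the controls by 0.94 ± 0.28 (adjusted p = 0.0425). That difference no longer passed when any of wild_type replicates 1 and 2, before_activation replicates 1, 3 and 4 or 5M replicates 2 to 5 was left out (adjusted p = 0.0538 to 0.112). The differences were −0.79 ± 0.26 at 1M, −0.51 ± 0.29 at 2M, −0.70 ± 0.27 at 3M and −0.90 ± 0.31 at 4M, none of which passed, nor did that of 2M and 3M together (−0.61 ± 0.22, adjusted p = 0.0860). The last passed without before_activation replicate 2 or 5 (−0.69 each time, adjusted p = 0.0394 and 0.0486). All 10 glands of 4M and 5M were above the tumours, and the tumour mean was lower by a difference of −0.63 ± 0.23 (adjusted p = 0.0641; without 4M replicate 2, adjusted p = 0.0417, and without the arrays of high lymphocyte markers −0.67, adjusted p = 0.0499). The second probe set of Syp was at the floor on all arrays, between 2.06 and 2.19, and so neither repeats nor contradicts these values.

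Cpe encodes carboxypeptidase E, which also acts outside granules. Its probe set 1415949_at was bright everywhere, from 11.11 to 13.66, and no comparison passed. The 1M arrays read 12.65, 12.63, 12.73, 12.90 and 13.56 against 11.26 to 12.98 in the controls, a difference of 0.79 ± 0.25 (adjusted p = 0.102). The 4M arrays read 11.45, 11.11, 11.89, 11.33 and 11.83, lower than the controls by 0.58 ± 0.24 (adjusted p = 0.204). The tumours read 11.62, 11.72, 11.85, 13.40 and 11.46, of which replicate 4 alone exceeded the highest control, and the difference was −0.09 ± 0.32 (adjusted p = 0.976). Against 4M and 5M it was 0.04 ± 0.34 (adjusted p = 0.938), and −0.31 without tumour replicate 4. Without before_activation replicate 2 the 1M difference was 0.89 and passed (adjusted p = 0.0382). The second probe set of Cpe was at the floor, between 1.48 and 1.59.

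Scg5 encodes 7B2, the chaperone of the convertase PC2. It did not follow the groups. In wild_type the arrays read 2.75, 6.53, 2.66, 2.69 and 2.74, and in before_activation 2.72, 6.69, 2.62, 2.61 and 5.49. At 1M they read 2.72, 2.62, 2.69, 5.71 and 2.64, at 2M 2.61, 5.20, 7.09, 5.71 and 5.22, and at 3M 2.62, 7.25, 2.68, 2.65 and 5.98. The high and low values in each of these groups were more than 2 log2 steps apart. At 4M the arrays read 2.67, 3.26, 2.69, 2.72 and 2.68, at 5M 6.74, 2.74, 2.66, 2.83 and 3.97, and the tumours lay between 2.60 and 2.73. Scg5 was at least 5 on 11 of the 14 arrays with high lymphocyte markers and on 0 of the 26 others, which lay between 2.60 and 2.83. The 3 remaining high-lymphocyte arrays read 2.72, 3.26 and 3.97. No comparison passed, and the difference of 2M and 3M from the controls, 0.95 ± 0.79 (adjusted p = 0.592), was −0.05 without the arrays of high lymphocyte markers. In tumours the difference was −1.10 ± 0.77 (adjusted p = 0.350), and −0.03 without those arrays.

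**Figure D4:**
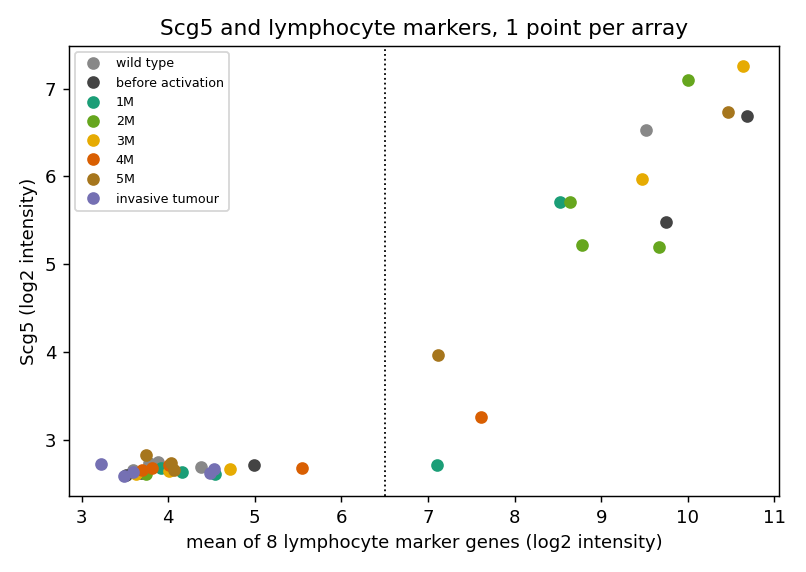
Log2 intensity of Scg5 (y axis) against the mean log2 intensity of 8 lymphocyte marker genes (x axis), 1 point for each of the 40 arrays, coloured by group; the dotted line marks 6.5. All arrays with Scg5 of at least 5 lie to the right of the line, in 6 of the 8 groups.

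The members' counts are read here against all genes. In the early comparison 1 of 9 members was higher (Cck) and 1 lower (Scg3), where 7.79 percent of the 18193 genes were higher and 9.04 percent lower, and 1 member, Cck, was called, where 0.934 percent of genes were called higher. In tumours 0 of 9 were higher and 2 lower (Scg3 and Syp), where 19.5 percent were higher and 20.6 percent lower. Scg3 was among the 5.90 percent called lower. Against 4M and 5M, 2 of 9 were lower (Scg3 and Cck), where 16.2 percent of genes were lower, and both were among the 4.22 percent called lower. The median difference of the 9 members was 0.00 in the early comparison and −0.19 in tumours, beside 0.01 and −0.01 over all genes. Members at the floor set these medians, which were 0.47 and −1.10 over the 5 members with a group mean of at least 5. At the single times 1 member was higher at each (Cck), where 3.08, 5.48, 5.19 and 8.73 percent of genes were higher at 2M, 3M, 4M and 5M, and 1, 1, 0 and 1 members were lower (Scg3 at 2M and 3M, Syp at 5M), where 2.97, 4.38, 2.22 and 8.03 percent were. Between before_activation and wild_type, limma passed 0 of the 9 members, and 0 percent of all genes. The differences were 0.12 ± 0.45 for Scg3 and −0.24 ± 0.32 for Cck. At an unadjusted p under 0.05 there were 2 members, Scg2 and Pcsk1, with differences of −0.07 and −0.05 at the floor, and the methods' unequal-variance test passed these 2. The slope from 2M to 5M passed 0 members, 1 at an unadjusted p under 0.05 (Scg3), beside 0.110 percent of all genes.

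In tumours these differences came with lower markers of most other tissue components, and in such bulk samples fewer cells of a type and less RNA per cell cannot be told apart. All 9 adipocyte markers fell (their mean was 13.1 to 14.3 in the controls and 5.94 to 10.1 in tumours). Fibroblast markers fell in 8 of 9 (12.5 to 13.6 against 10.01 to 10.9), endothelial markers in 9 of 9 (9.13 to 9.71 against 6.48 to 7.12) and basal and myoepithelial markers in 8 of 9 (10.5 to 11.8 against 7.27 to 8.32). Of 9 mast cell markers 5 fell and 1 rose (7.10 to 8.28 against 4.47 to 4.94), and mast cells carry granules of their own. Of 10 markers of Schwann cells and peripheral nerve 6 fell and 1 rose (7.51 to 9.10 against 6.43 to 7.42). Of 11 neuron markers 2 fell and 1 rose, and the list mean was low in controls and tumours (3.50 to 3.82 against 3.33 to 3.53). Only 2 of the 11, Stmn2 and Map2, had a group mean of at least 5. They lay at 6.78 and 8.47 in the controls and at 3.05 and 10.58 in tumours. The markers Tubb3, Nefl, Nefm, Th and Elavl4, picked after their values were seen, had group means of at most 2.91. Markers of luminal epithelium moved both ways, with 4 of 10 higher and 4 lower (list mean 11.8 to 12.6 against 10.8 to 11.7). The adhesion proteins Epcam and Cdh1 rose by 2.03 ± 0.20 and 2.14 ± 0.21, while the hormone receptors Pgr and Esr1 of luminal cells had differences of −7.34 ± 0.44 and −5.14 ± 0.42. Macrophage markers fell in 3 of 7. Mbp, a myelin protein, fell by 6.01 ± 1.08, and Stmn2, a growth-associated neuronal protein, fell by 3.73 ± 0.43, whereas Sox10, a transcription factor of glial cells and also of mammary cells, rose by 3.36 ± 0.36 and Map2, a microtubule protein of neurons, by 2.11 ± 0.33. The part of these tissue components in the falls of Scg3 and Syp was not tested. At 1M, 0 of the 9 markers of adipocytes, 0 of 9 of fibroblasts, 0 of 9 of endothelium and 0 of 9 of basal cells passed in either direction. Their median differences were −0.553, −0.086, −0.43 and 0.141, in that order, so a count of 0 does not show unchanged levels. Of all genes 4.24 percent passed higher and 1.54 percent lower at 1M. There 4 of 9 mast cell markers fell and 6 of 7 markers of dividing cells rose. The part of these components in the 1M fall of Scg3 was not tested either. Luminal markers again moved both ways at 1M, with 3 of 10 higher and 2 lower, and 2 of 7 macrophage markers, Sox10 and Map2 rose. In the early comparison 7 of 9 adipocyte, 5 of 9 endothelial and 6 of 9 mast cell markers fell, and 7 of 7 markers of dividing cells rose, while 3 of 10 luminal markers rose and 4 fell, and Sox10 and Map2 rose by 1.40 ± 0.32 and 1.41 ± 0.29.

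The rest of the secretory pathway was described from 7 lists, to be read against the shares of all genes given above. Their median differences ran early from −0.145 (prohormone-processing enzymes) to 0.011 (neuroendocrine regulators and enzymes) and in tumours from −0.26 to −0.002 for the same lists, beside 0.005 and −0.006 over all genes. Genes at the floor set most of these medians. Over the genes with a group mean of at least 5 they ran early from −0.287 (7 peptide receptors) to 0.322 (9 regulators and enzymes), and in tumours from −3.79 to 0.961 for the same lists. Among 20 other prohormone-processing enzymes, 4 fell and 0 rose early, and 7 fell and 3 rose in tumours. Qpct, the enzyme that makes the blocked amino terminus of many hormones, fell by 1.25 ± 0.37 early and fell by 3.30 ± 0.36 in tumours (adjusted p = 0.0309 and 4.97e-06). Mme (neprilysin), which degrades peptides outside the cell, fell by 0.53 ± 0.15 early and fell by 3.99 ± 0.53 in tumours (adjusted p = 0.0280 and 3.19e-05). The convertases Pcsk4 and Pcsk6 also fell early, with differences of −1.03 ± 0.28 and −0.84 ± 0.21. Furin, the convertase of the constitutive pathway, rose in tumours by 0.83 ± 0.22 (adjusted p = 0.00849), and the lysosomal protease Ctsl fell by 0.70 ± 0.13 (adjusted p = 5.91e-04).

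Of 29 measured genes of regulated exocytosis, 1 rose and 2 fell early, and 2 rose and 4 fell in tumours. Rab27a and Rab27b are close relatives that dock secretory vesicles. Early, Rab27a rose by 1.16 ± 0.23 (adjusted p = 0.00207) and Rab27b fell by 1.07 ± 0.31 (adjusted p = 0.0289). Doc2b, a calcium sensor of release, fell by 0.86 ± 0.26 early, between means of 2.65 and 3.51 near the floor. In tumours Sytl4 (granuphilin, a Rab27 effector on granules) fell by 5.13 ± 0.42 (adjusted p = 3.55e-07), from a mean of 8.81 to 3.68, and Sytl2, of the same family, fell by 2.09 ± 0.24 (adjusted p = 1.05e-05). Snap23, a SNARE protein, fell by 1.25 ± 0.16 and Rab3d, a Rab of secretory granules, fell by 1.02 ± 0.19.

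Of 33 other peptide hormones and neuropeptides, 7 had a group mean of at least 5. Early 0 passed in limma, and 2 fell in tumours. Penk, the precursor of the enkephalins, fell by 4.55 ± 0.43 (adjusted p = 1.43e-06) on all 5 tumour arrays, and Edn1 (endothelin-1) fell by 0.93 ± 0.31 (adjusted p = 0.0302) on 4 of 5. Of 24 peptide receptors, 7 with a group mean of at least 5, 2 fell early and 6 fell in tumours, and 0 rose in either. Oxtr, the oxytocin receptor of myoepithelial cells and also on that marker list, fell by 5.26 ± 0.45 in tumours (adjusted p = 5.63e-07). Pth1r, the receptor for parathyroid hormone and its related peptide, fell by 0.76 ± 0.21 early and fell by 4.38 ± 0.31 in tumours (adjusted p = 0.0229 and 1.10e-07). Ednrb, an endothelin receptor, fell by 0.60 ± 0.19 early and fell by 3.22 ± 0.17 in tumours (adjusted p = 0.0475 and 9.39e-09), and Calcrl, which forms the receptors of adrenomedullin and CGRP, fell by 2.83 ± 0.16 in tumours.

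Of 23 neuroendocrine regulators and enzymes, 2 rose early and 5 rose and 1 fell in tumours. Rest, the repressor that keeps neuronal genes silent in other cells, rose in tumours by 0.96 ± 0.23 (adjusted p = 0.00463), and its partner Rcor1 by 1.23 ± 0.23 (adjusted p = 6.19e-04). Creb1, the factor that binds the cyclic AMP response element, rose by 0.91 ± 0.15 early and by 1.22 ± 0.21 in tumours (adjusted p = 6.29e-04 and 4.03e-04), while its relative Crem fell by 0.64 ± 0.15 in tumours. Ddc, which makes dopamine and serotonin from their precursors, rose by 0.80 ± 0.15 early, between means of 3.21 and 4.01 under the floor limit of 5. Of 16 synaptic vesicle proteins, 0 passed early, and 2 rose and 2 fell in tumours. Syngr2 rose by 0.82 ± 0.19 and Sypl, a relative of synaptophysin, fell by 0.60 ± 0.18. Slc18a2, the vesicular monoamine transporter, fell by 1.51 ± 0.34 from a mean of 4.6, and Syngr3 rose by 2.42 ± 0.70 on 3 of 5 tumours. Of 15 other granule proteins, 0 passed early and 1 rose and 3 fell in tumours, of which Cadps2, a priming factor of dense-core vesicles, fell by 1.26 ± 0.39 and was the only 1 of these 4 with a group mean of at least 5.

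**Figure D5:**
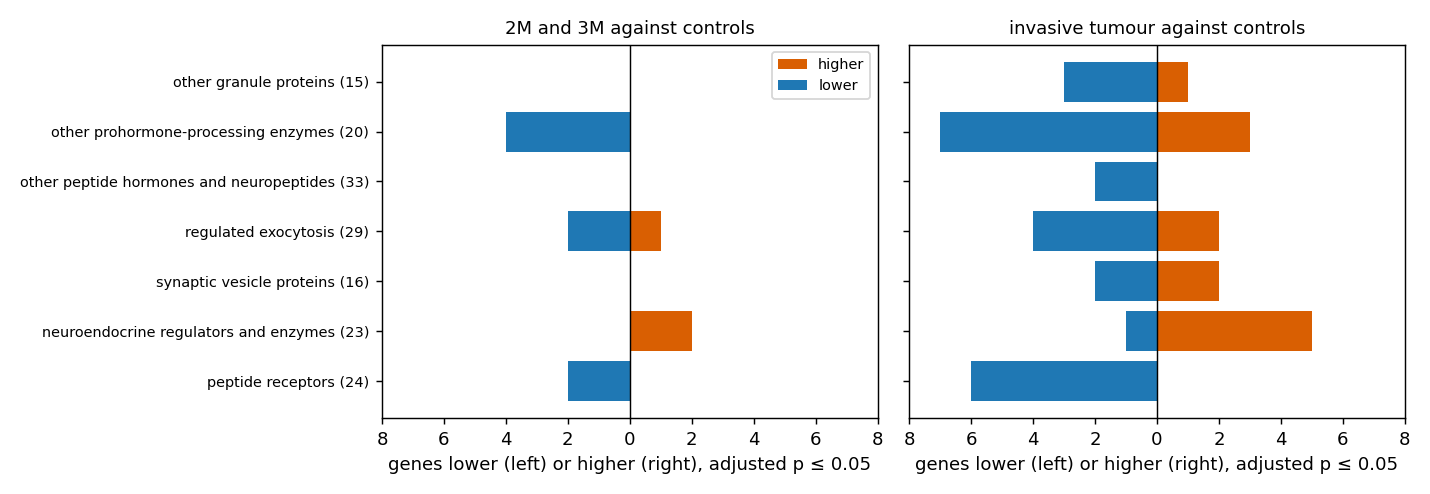
Number of genes of each related list that were lower (left, blue) or higher (right, orange) at an adjusted p of at most 0.05, early (left panel) and in invasive tumours (right panel), against the controls. The number of measured genes stands after each list. The prohormone-processing enzymes and the peptide receptors had the highest counts lower in tumours, 7 of 20 and 6 of 24, where 20.6 percent of all genes were lower.

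The genes whose levels followed each member most closely over the 40 arrays were ranked by Pearson's r, as a description over arrays that share groups. For Cck they were Ceacam10 (r = 0.89), Scnn1b (r = 0.89) and Slc13a2 (r = 0.88). Their means were 9.65, 9.67 and 8.77 at 1M, against 3.87, 6.15 and 3.16 in the controls and 4.34, 5.36 and 3.37 in tumours. For Scg3 they were Samd5 (r = 0.84), Cxcl15 (r = 0.80) and Id4 (r = 0.80), whose means were 8.63, 9.99 and 12.09 in the controls, 7.20, 7.85 and 10.16 at 1M and 3.56, 3.48 and 7.29 in tumours. For Syp they were Sptlc3 (r = 0.83), Gatb (r = 0.82) and Rhbdd2 (r = 0.79), and for Cpe Leprot (r = 0.71), Tnfrsf1b (r = 0.68) and Trp53inp1 (r = 0.66).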

How the data were processed

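Per the labels, cRNA was made from 50 ng of total RNA with a 2-cycle labelling kit and hybridised to 1 Affymetrix mouse array per mouse. According to the methods, the authors summarised the arrays by GCRMA in GeneSpring GX, which subtracts a background predicted from probe sequence and quantile-normalises the probe values, so dim probe sets collapse to a floor. The authors deposited linear intensity values for 45101 probe sets, with columns named only by group, and a table of log2 values, each centred on its probe set's median, with columns named by sample. Both tables held the same values within 1.04e-06 after centring, so the log2 level of each sample was rebuilt from the centred value and the probe set's median. Intensities ran from 2.03 to 144656, and the array medians of the log2 values from 4.24 to 4.61. No read depth exists for arrays.

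The 64 control probe sets were left out. Gene symbols came from the platform annotation, updated by gene ID through RefSeq (34741 of 34945 probe sets with 1 symbol; 932 had several and 9160 none). A gene was its brightest probe set, and every second probe set of a member is given. Tests were limma 3.58.1 (R 4.3.3) fits of only the groups compared, checked on simulated data, with Benjamini-Hochberg adjustment over 45037 probe sets. Correlations were tested with 100000 permutations, or exactly for under 10 arrays, in scipy 1.17.1. Named genes were all members, genes taken from the up to 4 with the smallest p of each list in the early and tumour comparisons, and the 3 genes with the highest r with each member (group means reaching 6 and spanning at least 1). Not all of the list genes with the smallest p were named in the text. The markers Tubb3, Nefl, Nefm, Th, Elavl4, Cckar and Cckbr were named outside this rule, after their values were seen. Members and lists were chosen with earlier results of these data known.

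The alternatives were other scalings, an offset of 16, a limit on dim probe sets (mean of at least 5), 1 fit over 8 groups, the unequal-variance t-test of the methods, each control group alone, the second probe set, a replicate block and leaving out each array. Leaving out arrays of high lymphocyte markers (mean of at least 6.5) or low BioB, and the comparison of 1M with 2M to 5M, were added after seeing the data. The labels do not say that replicate numbers pair the samples. Deviations from group means correlated at 0.037 to 0.122 on average within a number, against −0.014 between numbers. Single pairs within a number ran from −0.466 to 0.676, so these averages do not settle whether the numbers pair samples.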

Additional observations from a re-analysis of the deposited data

Results flagged for a closer look

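Among 72 groups of 5 arrays (9 members in 8 groups), 13 held 1 array far from the other 4, where chance alone marks about 1 group in 20. For Scg5 these were wild_type replicate 2 (6.53), 1M replicate 4 (5.71) and 4M replicate 2 (3.26), all with high lymphocyte markers. For Scg3 it was invasive_tumour replicate 5 (6.02, the others at most 3.8). For Cck they were before_activation replicate 3 (5.24, the others at most 4.23) and invasive_tumour replicate 3 (4.65, the others at most 4.26). For Cpe they were 1M replicate 5 (13.56) and invasive_tumour replicate 4 (13.40). At the floor, Chga stood out in before_activation replicate 1 (3.28), Chgb in wild_type replicate 4 (3.46), before_activation replicate 4 (2.97) and 3M replicate 2 (2.59), and Pcsk1 in 1M replicate 4 (2.17).

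The differences of 2 genes between time points stood out in the added test of 1M against 2M to 5M: Scg3 was lower at 1M by a log2 difference of −2.75 (limma adjusted p = 0.00438) and Cck higher by 3.17 (adjusted p = 0.00848), each on all 5 of the 1M arrays.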

How the results depend on the processing

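Of the values of single genes under alternatives other than leaving out 1 array, 422 kept their direction and side of the threshold, 22 lost the call, 10 gained it and 10 changed sign. The number of members that passed was 2 in every comparison with the controls except 4M (1), and it moved as follows, with the cause not tested. Early it was 1 without the arrays of low BioB or of high lymphocyte markers (each time Cck), and at 3M it was 1 under both, at 2M 1 and at 4M 0 without the low-BioB arrays. Under the methods' t-test it was 0 at 2M, 1 at 3M, 0 at 4M and 1 at 5M. With wild_type alone as controls it was 1 at 2M, 3M and 5M, and with before_activation alone 0 at 2M and 1 at 3M and 5M, fits of fewer samples. The fit over 8 groups gave 1 at 3M and 2 at 4M, and the offset of 16 gave 1 at 5M. With the second probe sets it was 1 in tumours and 1 at 5M, since that of Syp was at the floor. In the comparison of 1M with 2M to 5M it was 1 (Scg3) without the high-lymphocyte arrays and 5 with a common array median, which passed 17069 probe sets against 1276. Between before_activation and wild_type it was 0, but 1 (Pcsk1) in the fit over 8 groups and 2 under the methods' t-test; these passed 10569 and 11115 probe sets, against 0 in the 2-group fit.

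The following values changed sign. With the second probe sets, at the floor, Syp differed from the controls by 0.0205 at 1M, 0.00421 at 2M, 0.00871 at 3M, 0.0202 at 5M and 0.00646 early, and Cpe by 0.000683 in tumours and by −0.00854 against 4M and 5M. Without the high-lymphocyte arrays Scg5 differed by −0.0463 early and the slope of Cck was 0.37. A common array median gave −0.0208 for Scg3 between before_activation and wild_type.

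Leaving out 1 array at a time, the member count ran from 1 to 2 at 3M and from 1 to 3 at 5M. It ran from 2 to 3 early, at 1M and for tumours against 4M and 5M. The difference of Cpe ran from −0.44 to 0.0454 in tumours and from −0.31 to 0.18 against 4M and 5M, and that of Scg3 before activation from −0.14 to 0.38. The labels do not say that the replicate numbers pair the samples. With the replicate block, the member count was 3 early, 3 at 3M and 3 for tumours against 4M and 5M, and Syp then passed (adjusted p = 0.0282, 0.0397 and 0.0269).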
